A study of Homo sapiens with 18 samples.

Results

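The genes described here are 48 protein-coding genes that, in the human breast cancer line Cal51, had almost no reads in solvent-treated cells and a measurable level after 8 h with fenofibrate plus ezetimibe. They were chosen by their measured values: a mean normalised read count below 1 over the 3 DMSO libraries and of at least 10 over the 3 libraries of the drug combination. Genes of the SLC transporter family and genes annotated with the transcription factor families Homeobox or zf-C2H2 were left out. The 48 genes came from 3508 genes in the authors' deposited table for the combination, of which 2058 were listed as higher (1489 of them protein coding). That table lists only genes the authors called, with an adjusted p below 0.05 and a log2 fold change beyond 1 in either direction. The groups used were Cal51 cells given DMSO (the solvent), fenofibrate (a blood lipid drug and agonist of PPARα, a nuclear receptor), ezetimibe (which blocks NPC1L1, a transporter for sterol uptake) or both drugs, here called the combination. All were treated for 8 h with 3 libraries per group, and the labels give no dose and no genetic change in these groups. The series also holds 6 libraries of PKM2 knockout and control cells, which are not analysed here. All groups are 1 cell line.

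A gene that is silent in a cell line is often one whose product belongs to another tissue, such as a channel of excitable cells or a receptor of blood cells. Silencing of this kind is commonly kept by closed chromatin, by DNA methylation of CpG-rich promoters or by a lack of the activating transcription factors. Stress pathways, among them the integrated stress response driven by ATF4 and the AP-1 and ATF3 response, can raise the transcription of genes from a very low starting level. Bulk RNA sequencing gives the mean over all cells, so a few cells with much RNA of a gene and many cells with little of it cannot be told apart.

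The counts behind these genes were small. Over all 48 genes the DMSO libraries 1, 2 and 3 held 25, 21 and 10 reads, and the combination libraries 1, 2 and 3 held 1159, 1337 and 1183. The sums in the 3 combination libraries lay close together, and no DMSO library came near them. For comparison, the libraries held 2550718 to 3265200 reads in all genes of that table. Of the 48 genes, 18 had 0 reads over the 3 DMSO libraries, 11 had 1 read, 12 had 2 and 7 had 3. Every combination library held at least 1 read of each of the 48 genes, and 37 of the genes had a normalised count of at least 10 in every one of these libraries. The rule itself fixes much of this separation, and the authors listed 10.3% of about 19944 tested genes as higher with the combination.

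The median level of the 48 genes was far below that of the other genes that rose, at a like median gene length (4332 against 4636 bases). The rule takes only genes with a DMSO mean below 1. It thus favours low combination levels and large folds, so both contrasts below are descriptions of the choice. Their combination means ran from 10.1 to 112, with a median of 20.1, against a median of 255 for the other 1441 protein-coding genes listed as higher. The rule sets no upper limit on the combination mean, and 25 of the genes had a combination mean of 20 or more and 4 had 50 or more. A fold here is the ratio of the reads summed over each group's 3 libraries, corrected for the authors' library factors, and can differ a little from the ratio of the mean normalised counts. Where DMSO had 0 reads it is a lower bound, set against a floor of 3 reads over the group. For such genes this bound leaves out the counting error of the combination reads. With those genes at their bound, the median fold over the 48 genes was 27.5 (log2 4.78). In the authors' deposited table the median log2 fold change was 6.02 for the 48 genes, 1.63 for the other higher protein-coding genes and 1.17 for all genes listed. The authors' fold changes for genes without DMSO reads depend on how a 0 was handled. Values after ± are SDs over the 3 libraries of a group. The coefficient of variation over the combination libraries had a median of 28.5% and ran from 2.72% to 110%. Divided by the gene length in the deposited table, the combination means had a median of 4.87 per kilobase, from 0.512 for HECW2 to 52.3 for LURAP1L.

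**Figure D1:**
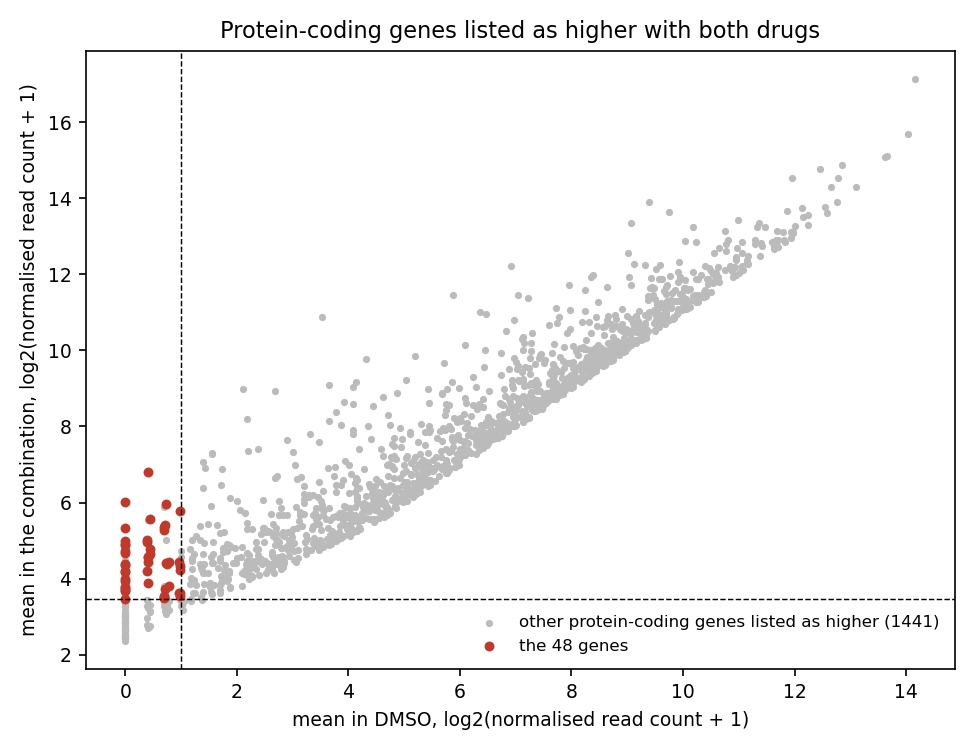
Mean in the combination (vertical axis) against mean in DMSO (horizontal axis), both as log2(normalised read count + 1), for the protein-coding genes listed as higher. The 48 genes (red) fill the corner cut by the dashed lines at the rule's limits of 1 and 10, low on both axes, and the other 1441 genes (grey) reach much higher levels, also in DMSO.

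**Figure D2:**
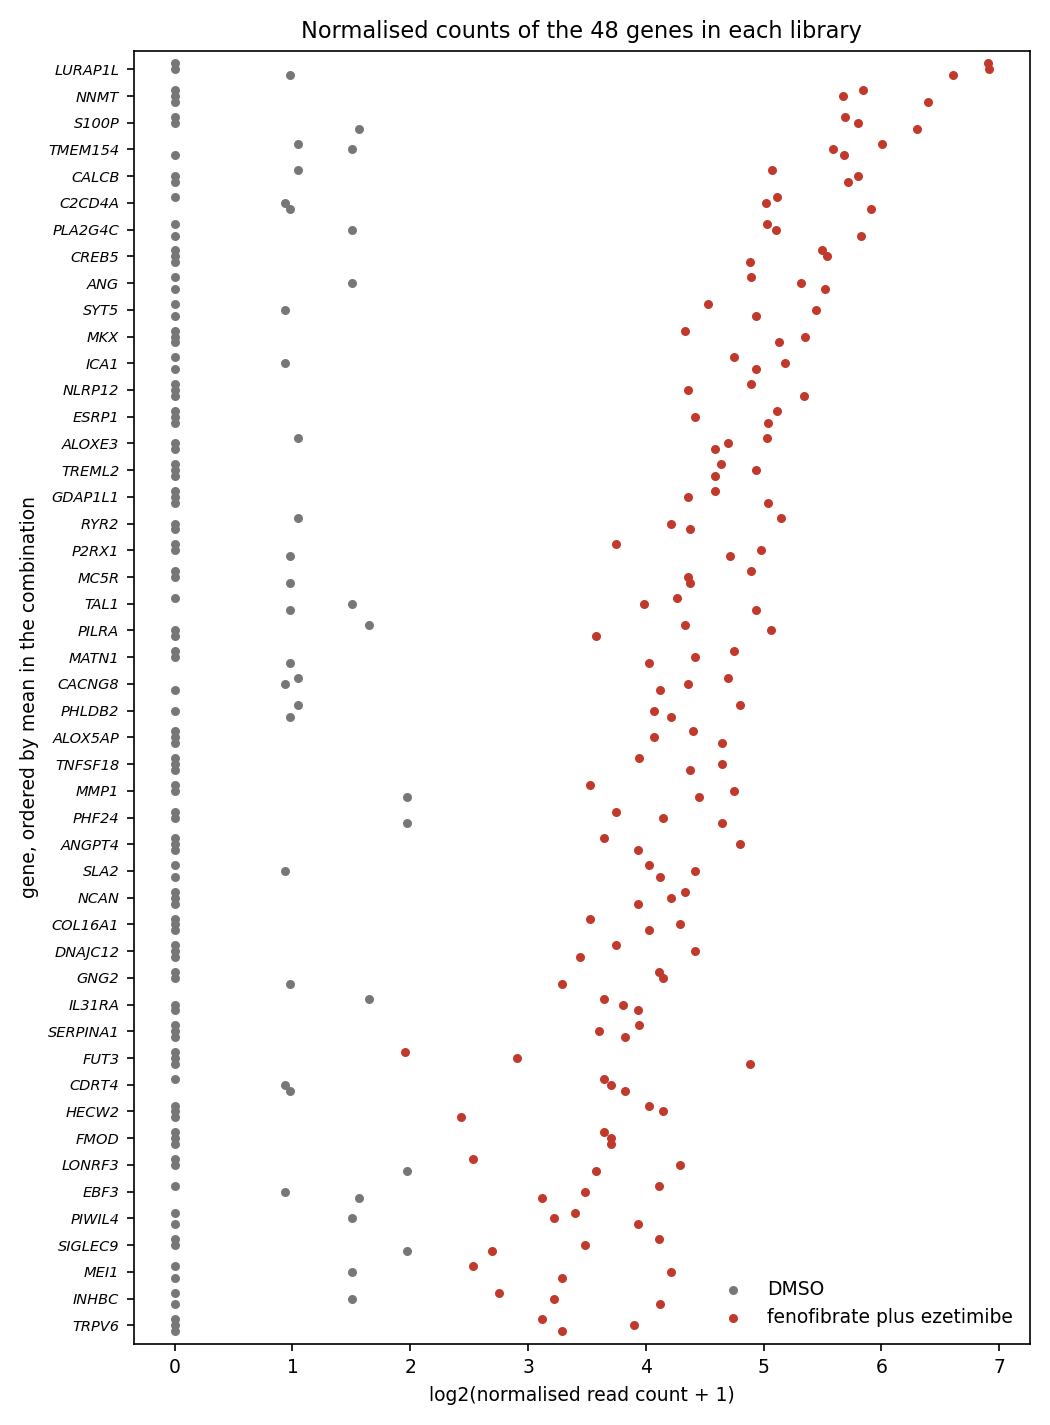
Normalised read count plus 1 on a log2 scale for each of the 48 genes in the 3 DMSO libraries (grey) and the 3 combination libraries (red), with genes ordered by their combination mean. Red points lie at higher values than grey ones, which the rule and the authors' calling make likely. How many other listed genes separate in this way was not counted. The spread of the red points grows towards the bottom, where FUT3 reaches down to 2.87.

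The highest level belonged to LURAP1L, a leucine-rich adaptor protein (ENSG00000153714, chromosome 9, 12775021 to 12822131 on hg38, plus strand). Its normalised read counts were 96.5, 119.5 and 119 in the combination libraries 1, 2 and 3 (mean 112 ± 13.1, SD, n = 3) and 0.977, 0 and 0 in the DMSO libraries. A single DMSO read, in library 1, stood against 341 reads in the combination, a ratio of 343 with a 95% exact interval from 61.1 to 13600 that covers counting error only. The 3 combination libraries lay within 1.24-fold of one another. Its promoter window is shown because this gene led the 48 both in level and per kilobase. The window runs from 250 bases before to 50 bases after a RefSeq start site, at chr9:12774770-12775069 on the plus strand of GRCh38.p14. Capitals mark a match to the TATA box letters TATAAA.
LURAP1L: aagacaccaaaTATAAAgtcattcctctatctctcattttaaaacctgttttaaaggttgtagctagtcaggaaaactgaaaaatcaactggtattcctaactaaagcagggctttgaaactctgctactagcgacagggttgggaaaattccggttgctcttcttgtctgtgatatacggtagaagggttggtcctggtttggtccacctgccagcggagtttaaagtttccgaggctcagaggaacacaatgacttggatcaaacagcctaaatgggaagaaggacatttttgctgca
The match lay at -239 relative to the start site, and the window had a GC content of 42.3%.

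Calcium and membrane signalling genes formed 1 of the 2 largest groups by role, with 9 members, although the roles were assigned after the genes were known. S100P, a small calcium-binding protein secreted by several carcinomas (ENSG00000163993, chromosome 4, 6693069 to 6697170 on hg38, plus strand), was the highest of them. S100P reached 77.8, 54.7 and 50.8 in the combination libraries 1, 2 and 3 (mean 61.1 ± 14.6, SD, n = 3) and 1.95, 0 and 0 in the DMSO libraries. Only DMSO library 1 held reads of it (2 reads), and the ratio was 91.9 (95% exact interval 25.1 to 765). Its RefSeq window, shown because it has the TATA box letters close to the start site, lies at chr4:6693628-6693927 on the plus strand of GRCh38.p14, with capitals for TATAAA at -28.
S100P: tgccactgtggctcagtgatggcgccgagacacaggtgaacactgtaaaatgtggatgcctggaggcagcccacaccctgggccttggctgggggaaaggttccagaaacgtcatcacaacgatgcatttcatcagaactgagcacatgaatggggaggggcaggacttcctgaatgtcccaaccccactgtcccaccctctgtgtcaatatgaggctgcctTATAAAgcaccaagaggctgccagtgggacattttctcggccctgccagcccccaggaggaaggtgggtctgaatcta
This window was poor in CpG, with an observed to expected ratio of 0.21.

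C2CD4A, a nuclear protein with a calcium-binding C2 domain that is induced by inflammatory cytokines, had 59.2, 31.5 and 33.5 in the combination libraries (mean 41.4 ± 15.4), and the first of these stood above the other 2. SYT5, a synaptotagmin that acts as a calcium sensor in vesicle fusion, had 29.6, 42.6 and 22 in the combination libraries (mean 31.4 ± 10.4). Both had at most 2 DMSO reads in all. RYR2, the calcium release channel of heart muscle, had 19.7, 17.6 and 34.5 in the combination libraries (mean 23.9 ± 9.19), with the third library well above the others. Its transcript is long, so the level per kilobase was only 1.35. P2RX1, an ATP-gated cation channel of platelets and smooth muscle, had 25.2, 30.6 and 12.4 in the combination libraries (mean 22.7 ± 9.31). MC5R, a melanocortin receptor of exocrine glands, had 19.7, 19.5 and 28.7 in the combination libraries (mean 22.6 ± 5.28). RYR2, P2RX1 and MC5R each had 1 DMSO read, and their ratios of summed reads ran from 69.3 to 73.3. CACNG8, an auxiliary subunit of AMPA receptors, and GNG2, a G protein gamma subunit, had combination means of 20.3 ± 4.29 and 13.9 ± 4.46. TRPV6, a calcium channel of intestinal and other epithelia, was the lowest of all 48 genes, with 8.77, 13.9 and 7.66 in the combination libraries (mean 10.1 ± 3.33) and 0 reads in DMSO.

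Reference lists of such proteins are set here against all tested genes, of which 10.3% were listed as higher with the combination and 7.27% as lower. Here and below, the share of a list is over all its genes, tested or not. A list with untested genes thus comes out lower than its share of tested genes would. The lists were chosen with earlier results of these data known. Of 92 ion channel genes, 10 were listed as higher (10.9%) and 4 as lower, and P2RX1 and TRPV6 were the members of the 48 among them. Of 82 small-molecule and peptide G protein-coupled receptors 7 were higher (8.54%) and 5 lower, MC5R among the former. Of 54 muscle and contractile genes 4 were higher (7.41%), RYR2 among them, and 1 lower. Of 65 neuronal and synaptic genes 7 were higher (10.8%) and 3 lower. All 4 shares of higher genes lay near or below that of all tested genes. Absence from the table does not say whether a gene was unchanged, missed the listing limit or was too low to test. CALB1, a calcium-binding protein that works with TRPV6 in calcium transport, fell from 224 ± 37.7 in DMSO to 43.7 ± 3.11.

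The secreted peptides and growth factors had 5 members. CALCB, which encodes beta-CGRP, a vasodilator peptide of sensory neurons (ENSG00000175868, chromosome 11, 14904997 to 15082342 on hg38, plus strand), was the highest. CALCB reached 51.5, 54.7 and 32.6 in the combination libraries 1, 2 and 3 (mean 46.2 ± 12, SD, n = 3) and 0, 0 and 1.07 in the DMSO libraries. One read in DMSO library 3 stood against 140 in the combination (ratio of summed reads 141, 95% exact interval 24.8 to 5590). CALCRL, the G protein-coupled subunit of the CGRP receptor, fell from 243 ± 42.4 in DMSO to 61.5 ± 13.4. ANG, the secreted ribonuclease angiogenin, had 44.9, 38.9 and 28.7 in the combination libraries (mean 37.5 ± 8.19) against 2 reads in DMSO. Its exons share 47.2% of their bases with RNASE4 on the same strand, so its reads may in part belong to RNASE4, which was not listed. TNFSF18, the ligand of the receptor GITR of T cells, had 19.7, 24.1 and 14.4 in the combination libraries (mean 19.4 ± 4.87) against 0 reads in DMSO. Its relative TNFSF9 rose from 139 ± 31.6 in DMSO to 279 ± 52.2. ANGPT4, a ligand of the endothelial receptor TIE2, had 14.2, 26.9 and 11.5 in the combination libraries (mean 17.5 ± 8.20), also against 0 reads. INHBC, the activin beta-C chain made in liver, had 16.4, 8.34 and 5.75 in the combination libraries (mean 10.2 ± 5.58), 1 of the means nearest to the limit of 10. INHBE, the activin beta-E chain that lies 1495 bases downstream of INHBC on the same strand, rose from 50.2 ± 14.2 in DMSO to 473 ± 72.2. Of 77 secreted cytokines, chemokines and growth factors in the reference list, 27 were higher (35.1%, against 10.3% of all tested genes) and 2 lower, and only TNFSF18 of the 48 genes was on it.

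The immune receptors and innate sensors had 6 members. NLRP12, a sensor protein that restrains inflammatory signalling in myeloid cells (ENSG00000142405, chromosome 19, 53793603 to 53824394 on hg38, minus strand), was the highest. The normalised read counts of NLRP12 were 39.5, 19.5 and 28.7 in the combination libraries 1, 2 and 3 (mean 29.2 ± 10.01, SD, n = 3). The libraries spread over 2.03-fold, and with 0 DMSO reads the rise was at least 29.1-fold. TREML2, a receptor of B cells and macrophages, had 23, 29.7 and 23.9 in the combination libraries (mean 25.5 ± 3.59), also against 0 DMSO reads. PILRA, an inhibitory receptor of myeloid cells, had 11, 32.4 and 19.2 in the combination libraries (mean 20.8 ± 10.8), a wide spread. SLA2, an adaptor that dampens T cell receptor signalling, had a combination mean of 17.4 ± 2.66. IL31RA, a subunit of the receptor for the itch cytokine IL-31, had 14.2, 13 and 11.5 in the combination libraries (mean 12.9 ± 1.38), a narrow range. SIGLEC9, an inhibitory sialic acid receptor of myeloid cells, had 5.48, 10.2 and 16.3 in the combination libraries (mean 10.7 ± 5.41) against 3 reads in DMSO library 1. PILRA and SIGLEC9 belong to families with close copies, and reads could be split between copies.

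Of 31 endothelial and blood cell markers, tested or not, only ITGAM, an integrin of myeloid cells, was listed (3.23%, against 10.3% of all tested genes listed as higher). ITGAM rose from 18.2 ± 5.86 to 57.8 ± 10.2. Of 49 cytokine and immune receptors 9 were higher (18.4%, against the same 10.3%) and 2 lower. Among relatives looked up after the genes were known, NLRP1, an inflammasome sensor of epithelia, rose from 588 ± 71.1 in DMSO to 2111 ± 53.6, and SIGLEC15 from 0 to 4.5 ± 2.00. Levels of the markers that were not listed are unknown, so the part of other cell types was not tested.

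The lipid mediator and metabolic enzymes had 5 members. NNMT, which methylates nicotinamide and so draws on the methyl donor pool (ENSG00000166741, chromosome 11, 114257787 to 114313285 on hg38, plus strand), had the largest fold change in the authors' deposited table. NNMT had normalised read counts of 83.3, 50.04 and 56.5 in the combination libraries 1, 2 and 3 (mean 63.3 ± 17.6, SD, n = 3). None of the 3 DMSO libraries held a read, and the rise was at least 63.3-fold. The first combination library was the highest, and all 3 lay far from 0. PLA2G4C, a calcium-independent cytosolic phospholipase A2, had 55.9, 33.4 and 31.6 in the combination libraries (mean 40.3 ± 13.5) against 2 reads in DMSO library 2. ALOXE3, the epidermal lipoxygenase that works after ALOX12B in skin barrier lipid synthesis, had 23, 25 and 31.6 in the combination libraries (mean 26.5 ± 4.49) against 1 DMSO read. ALOX12B, 8184 bases downstream on the same strand, was listed at 0 reads in DMSO and 7.10 ± 4.54 in the combination, below the limit of 10. ALOX5AP, which presents arachidonic acid for leukotriene synthesis, had 24.1, 15.8 and 20.1 in the combination libraries (mean 19.99 ± 4.18) against 0 reads. FUT3, the Lewis blood group fucosyltransferase, had 28.5, 6.49 and 2.87 in the combination libraries (mean 12.6 ± 13.9), so 1 library carried its mean, and without that library it was no longer above 10. FUT3 also has close copies in FUT5 and FUT6, neither of which was listed. Of 61 keratinocyte and cornified envelope genes, tested or not, 3 were higher (4.92%, against 10.3% of all tested genes) and 0 lower. Of 52 oxidative, metal and drug response genes 16 were higher (30.8%) and 2 lower. None of the 48 genes was on either list.

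The regulators of transcription and RNA had 8 members, and 4 of the 48 genes carried a transcription factor family in the deposited annotation. CREB5, a bZIP factor that binds cyclic AMP response and AP-1 like elements (ENSG00000146592, chromosome 7, 28299321 to 28825894 on hg38, plus strand), was the highest. The normalised read counts of CREB5 were 28.5, 45.4 and 44 in the combination libraries 1, 2 and 3 (mean 39.3 ± 9.39, SD, n = 3). There were 0 reads in DMSO, and the rise was at least 40.5-fold. A RefSeq window of CREB5 is shown because it holds the letters TGATGNAA, the core of composite sites of ATF4 and C/EBP factors, at -83. It lies at chr7:28685883-28686182 on the plus strand of GRCh38.p14, and capitals mark the match, which reads on the opposite strand. The window also holds a match to the AP-1 letters TGANTCA, which was left in lower case.
CREB5: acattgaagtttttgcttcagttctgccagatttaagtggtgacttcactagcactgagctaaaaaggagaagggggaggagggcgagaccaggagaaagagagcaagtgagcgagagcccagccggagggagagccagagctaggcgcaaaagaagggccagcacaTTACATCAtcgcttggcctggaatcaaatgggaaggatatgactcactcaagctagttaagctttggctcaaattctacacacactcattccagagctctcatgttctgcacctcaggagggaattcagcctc
Its CpG observed to expected ratio was 0.27. ATF3, another bZIP factor, rose from 57.9 ± 5.66 in DMSO to 2827 ± 278.

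MKX, Mohawk, a tendon transcription factor with an atypical homeodomain that the deposited annotation files under Others (ENSG00000150051, chromosome 10, 27672875 to 27746060 on hg38, minus strand), was next. MKX had normalised read counts of 34, 39.8 and 19.2 in the combination libraries 1, 2 and 3 (mean 31 ± 10.7, SD, n = 3). It had 0 DMSO reads, a rise of at least 31.5-fold, and the second library lay highest. Its window had the highest GC content of those printed, though not of all matched windows, and is shown for that contrast. It lies at chr10:27745770-27746069 on the minus strand of GRCh38.p14, with capitals for 3 matches to the GC box letters GGGCGG on either strand.
MKX: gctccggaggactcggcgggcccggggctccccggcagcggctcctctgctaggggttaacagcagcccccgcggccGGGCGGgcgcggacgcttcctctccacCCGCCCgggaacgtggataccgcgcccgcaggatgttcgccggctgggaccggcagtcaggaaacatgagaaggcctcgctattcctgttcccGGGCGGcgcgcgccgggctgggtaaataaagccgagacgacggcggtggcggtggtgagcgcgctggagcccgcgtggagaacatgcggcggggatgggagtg
The window had a GC content of 72.3% and a CpG observed to expected ratio of 1.03. The first match began at -173.

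TAL1, a bHLH factor of blood stem cells and erythroid cells, had 29.6, 14.8 and 18.2 in the combination libraries (mean 20.9 ± 7.74) against 3 DMSO reads, with the first library highest. An unnamed gene, AL135960.1, shares 14.8% of its exon bases. Its partners moved the other way: TCF3, its bHLH partner, fell from 3728 ± 479.6 in DMSO to 1545 ± 66.9, and GATA2 fell from 471 ± 48.4 in DMSO to 219 ± 28.6. EBF3, a factor of neural and mesenchymal development, had 7.67, 10.2 and 16.3 in the combination libraries (mean 11.4 ± 4.42) against 3 DMSO reads, while its relative EBF4 fell from 72.2 ± 8.64 in DMSO to 21.7 ± 7.72. ESRP1, a splicing regulator of epithelial cells, had 31.8, 20.4 and 33.5 in the combination libraries (mean 28.6 ± 7.13) and 0 reads in DMSO, a rise of at least 28.8-fold. PIWIL4, a small RNA binding protein of the germ line, and MEI1, a gene needed for meiotic double-strand breaks, had combination means of 10.7 ± 3.12 and 10.4 ± 6.56. PIWIL4 shares 15.0% of its exon bases with FUT4. Of 63 germ line and cancer-testis genes in the list, tested or not, 4 were higher (6.35%, against 10.3% of all tested genes) and 2 lower. None of them was among the 48 genes. PHF24, a neuronal PHD finger protein, had 24.1, 16.7 and 12.4 in the combination libraries (mean 17.7 ± 5.90) against 3 reads in DMSO library 1.

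The matrix and proteolysis genes had 6 members at low levels, with combination means from 11.9 to 20.5, and 4 of the 6 had 0 DMSO reads. MATN1, a cartilage matrilin, had 15.3, 20.4 and 25.9 in the combination libraries (mean 20.5 ± 5.26). The antisense gene MATN1-AS1 overlaps 18.2% of its exon bases and had 30.2 in the combination against 0.938 in DMSO. Whether the counting used strand is not stated, so reads of this pair cannot be told apart. MMP1, interstitial collagenase, had 20.8, 25.9 and 10.5 in the combination libraries (mean 19.1 ± 7.85) against 3 reads in DMSO library 1. NCAN, a proteoglycan of brain matrix, had a combination mean of 17 ± 2.51, and COL16A1, a fibril-associated collagen, had 14.8 ± 4.03. SERPINA1, the liver elastase inhibitor alpha-1-antitrypsin, had 13.2, 11.1 and 14.4 in the combination libraries (mean 12.9 ± 1.64), a tight range, against 0 DMSO reads. Of 63 liver and intestine genes, tested or not, 4 were higher (6.35%, against 10.3% of all tested genes), SERPINA1 among them, and 2 lower. FMOD, the matrix proteoglycan fibromodulin, was the least variable of the 48 genes, with 12.1, 12 and 11.5 in the combination libraries (mean 11.9 ± 0.323).

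The last 9 members act as adaptors, in trafficking or in protein turnover, with LURAP1L at their head. TMEM154, a membrane protein of little known function (ENSG00000170006, chromosome 4, 152618632 to 152680165 on hg38, minus strand), followed. Its normalised read counts were 50.4, 47.3 and 63.2 in the combination libraries 1, 2 and 3 (mean 53.6 ± 8.44, SD, n = 3) and 0, 1.84 and 1.07 in the DMSO libraries. Its 3 DMSO reads gave a ratio of 54.6. ICA1, a protein of insulin granules, had 29.6, 35.2 and 25.9 in the combination libraries (mean 30.2 ± 4.71) against 1 read. GDAP1L1, a relative of the mitochondrial membrane protein GDAP1, had a combination mean of 24.7 ± 6.35 against 0 reads, a rise of at least 24.8-fold. PHLDB2, which anchors microtubules at the cell cortex, had 20.03 ± 5.94. HECW2 and LONRF3, both ubiquitin ligases, had 12.1 ± 6.74 and 11.4 ± 6.88. CDRT4, a gene of the Charcot-Marie-Tooth duplication region, had 12.2 ± 0.846 but shares 73.7% of its exon bases with the readthrough gene TVP23C-CDRT4. TVP23C, which it overlaps on the same strand, rose from 37.1 ± 7.01 to 191 ± 8.78.

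DNAJC12, a J domain co-chaperone of aromatic amino acid hydroxylases (ENSG00000108176, chromosome 10, 67796665 to 67838166 on hg38, minus strand), was the only 1 of the 48 genes on the list of ATF4 and unfolded protein response genes. The normalised read counts of DNAJC12 were 9.86, 20.4 and 12.4 in the combination libraries 1, 2 and 3 (mean 14.2 ± 5.48, SD, n = 3). It had 0 DMSO reads, a rise of at least 14.7-fold. Its window is shown as the poorest in CpG of those printed. It lies at chr10:67838139-67838438 on the minus strand of GRCh38.p14, with capitals for TATAAA at -89.
DNAJC12: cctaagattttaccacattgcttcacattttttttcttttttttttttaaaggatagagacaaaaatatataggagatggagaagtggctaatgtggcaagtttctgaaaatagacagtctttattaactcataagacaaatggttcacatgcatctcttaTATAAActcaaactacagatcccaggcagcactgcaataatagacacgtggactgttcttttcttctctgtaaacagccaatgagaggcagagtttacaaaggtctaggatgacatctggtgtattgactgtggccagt
Its GC content was 36.3% and its CpG observed to expected ratio 0.10. Of the 57 genes on that list 44 were higher with the combination (77.2%, against 10.3% of all tested genes) and 0 lower. The chaperones DNAJB9 and DNAJC3 rose from 246 ± 17.5 in DMSO to 3369 ± 44 and from 1547 ± 100.4 in DMSO to 4212 ± 649. Of 48 immediate early and AP-1 genes 29 were higher (60.4%, against the same 10.3%) and 0 lower, and none of those 29 was among the silent genes. Both lists were chosen with earlier results of these data known, so these shares are descriptions.

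Promoter sequence was not used to choose the genes. RefSeq windows of 300 bases were matched for 34 of the 48 genes, giving 54 windows, since a gene can have several start sites. No window was matched for NNMT, CALCB, ESRP1, PLA2G4C, NCAN, P2RX1, MATN1, CACNG8, SLA2, PILRA, MMP1, IL31RA, CDRT4 and PIWIL4. The windows of the 34 genes had fewer CpG dinucleotides than those of the other higher protein-coding genes. Their median observed to expected ratio was 0.436, against 0.756 over 1577 windows of the other higher genes and 0.579 over 35116 windows of all genes. A ratio below 0.4 was found in 27 of the 54 windows (50%), in 22.5% of those of the other higher genes and in 40.6% of all. The median GC content followed the same order, at 55.3%, 63.7% and 58.7%. Windows of 1 gene overlap or share a locus, so these shares are descriptions and carry no test.

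The TATA box letters TATAAA, searched on both strands, were in 12 of the 54 windows (22.2%, 95% exact interval 12.0 to 35.6), which belong to 11 genes. The share was 8.43% for the other higher genes and 11.5% for all promoters. The GC box letters GGGCGG were in 46.3% of the windows, against 64.0% and 45.0%, and CCAAT in 27.8%, against 36.0% and 34.6%. On the transcribed strand alone, TATAAA was in 14.8%, against 5.71% and 7.33%. TGATGNAA was in 4 windows (7.41%), those of CREB5, NLRP12, S100P and TMEM154, against 3.17% and 3.62%. On the transcribed strand alone it was in 0 of 54 windows, against 1.71% and 1.87%, so the direction turned. The AP-1 letters TGANTCA were in 9.26%, against 7.86% and 7.71%. The cyclic AMP response element TGACGTCA and the unfolded protein response element TGACGTGG were in 0 of 54 windows. The other higher genes had shares of 2.54% and 1.84% for them, and all promoters 1.85% and 0.729%. The E-box CACGTG was in 9.26%, against 9.51% and 7.26%, and the heat shock pair GAANNTTC in 1.85%, against 3.93% and 6.77%. The antioxidant core TGACNNNGC was in 13.0%, against 16.4% and 13.3%, but on the transcribed strand alone it was in 13.0%, against 8.12% and 6.90%, so its direction turned too. TGACGTGG followed by C also matches TGACNNNGC, so 1 stretch of bases can count for both, though TGACGTGG was in 0 of the 54 windows. A match is a run of letters and not a shown binding site. The intervals treat windows as independent and cover sampling of windows only.

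**Figure D3:**
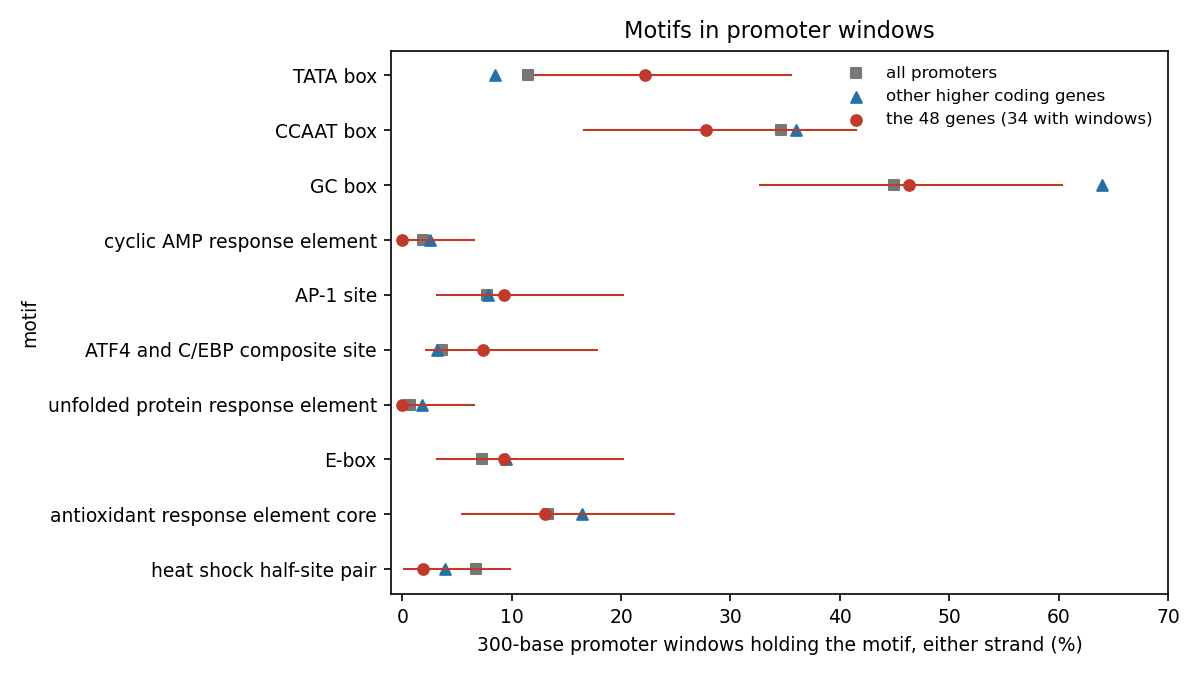
Percent of 300-base RefSeq promoter windows that hold each of 10 motifs on either strand, for the silent genes (red circles, 54 windows of 34 genes, bars are 95% exact binomial intervals), for the other higher protein-coding genes (blue triangles) and for all promoters (grey squares). The share of the silent genes' windows with the TATA box letters anywhere in the window lies at 22.2%, against 11.5% of all promoters. The GC box share lies near that of all promoters.

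The genes were spread over 21 chromosomes. Chromosome 19 held 7 of them (14.6%, against 8.60% of all protein-coding genes listed as higher) and chromosome 1 held 6 (12.5%, against 10.1%). NLRP12 and CACNG8, on chromosome 19, lay 138646 bases apart, and the noncoding gene AC008440.3 between them met the same limits. Of the 48 genes 12 (25.0%) lay within 50 kb of another gene listed as higher, against 528 of the other 1441 (36.6%). SYT5 was one of these, with the phosphatase gene PTPRH 807 bases upstream on the same strand, which rose from 67.3 ± 3.00 to 429.9 ± 71.2. CACNG8 was another, 2073 bases from CACNG6, which rose from 2.47 ± 3.46 to 19.7 ± 3.10.

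Neither single-drug table listed any of the 48 genes. The authors listed 2.7% of about 13596 tested genes as higher with ezetimibe and 0.761% of about 12215 with fenofibrate, and a count of 0 of 48 is near these shares. The lowest mean over 6 libraries in the ezetimibe table was 14.0, for PCLO, and it was 28.7, for NPC1L1, with fenofibrate. Taken over the 3 DMSO and 3 combination libraries, 34 of the 48 genes had a mean below the former and 45 below the latter. In the combination table the lowest such mean was 2.08. The tables thus reached down to different levels, and the levels of the 48 genes with 1 drug alone are unknown. The 14 genes at or above the lowest ezetimibe mean included LURAP1L, NNMT and S100P.

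**Figure D4:**
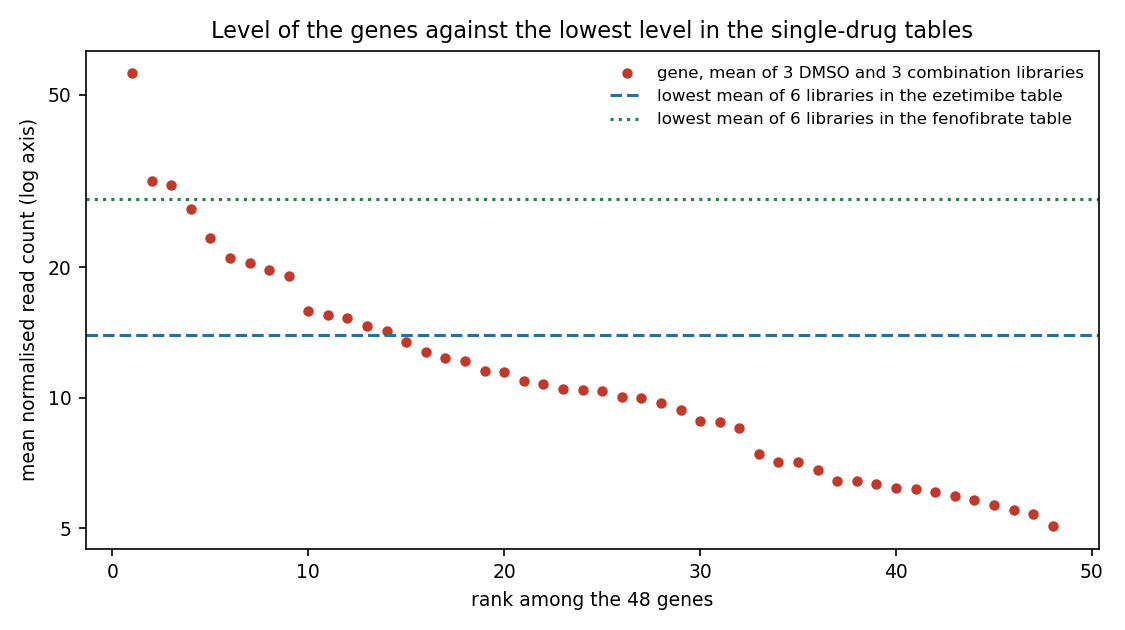
Mean normalised read count of each of the 48 genes over the 3 DMSO and 3 combination libraries (points, log axis), ranked from high to low. The dashed line marks the lowest mean of 6 libraries among genes in the ezetimibe table (14.0) and the dotted line that for fenofibrate (28.7), with 14 and 3 genes at or above them.

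Genes just past the DMSO limit did appear with ezetimibe. With that limit raised from 1 to 2, the rule gave 96 genes, and 2 of them, TMEM125 and PCLO, were in the ezetimibe table. TMEM125, an epithelial membrane protein, had 1.95, 2.75 and 1.07 in DMSO, 47.4, 31 and 39.9 with ezetimibe and 142, 174 and 148 with the combination. PCLO, a scaffold of the synaptic active zone, had 2.93, 0.918 and 1.07 in DMSO, 29.9, 19.6 and 29.5 with ezetimibe and 49.3, 89 and 107 with the combination. The combination and ezetimibe groups share their DMSO libraries, and each table was scaled on its own, so the 2 levels stand side by side without a test. The ezetimibe table itself held 1 gene with a DMSO mean below 1, LCNL1, a lipocalin-like gene, with 32.0, 29.9 and 25.7 in the ezetimibe libraries, and it was not listed with the combination. There were 0 such genes with fenofibrate and 246 with the combination.

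The limits of the rule cut through a continuum. TRPV6, INHBC and MEI1 lay just inside the limit of 10, with combination means of 10.1, 10.2 and 10.4, and TLR6, MME and DMBT1 just outside it at 9.90, 9.89 and 9.87. LONRF3, MMP1, PHF24 and SIGLEC9 lay just inside the DMSO limit at 0.977, and ETV7 and FIBIN at 1.01 and ADGRG1 at 1.22 just outside. The same limits without the other conditions were met by 92 genes, of which 38 were not protein coding. The 6 coding genes left out by family were HOXB9, HMX3, PDX1, ZNF648, SLC5A4 and SLC2A3. The reverse, a DMSO mean of at least 10 and a combination mean below 1, was met by 12 genes, 5 of them coding (RD3, OLFML2B, VSIG2, C14orf132 and IDO1).

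The choice was also repeated without each library in turn. When the rule was applied without combination library 1, 2 or 3, it gave 51, 54 and 52 genes, and 38, 41 and 40 of them reached 10 in the library left out, with medians of 17.5, 19 and 17.2. Without DMSO library 1, 2 or 3 it gave 62, 56 and 53 genes, of which 23, 22 and 19 had a value of 1 or more in the DMSO library left out. The highest such DMSO values were 6.84, 6.43 and 10.7. Most genes chosen on 2 combination libraries reached 10 in the other one. All candidates came from the authors' listing, which had used every library, so the library left out was not independent of the choice. In DMSO a value of 1 is worth 1 to 2 reads. Of the 48 genes 32 were kept in all 6 of these choices.

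The labelled cell type could be checked only in part. Of 19 breast epithelial and mesenchymal markers, KRT7, GATA3, FOXA1 and EGFR were listed as higher with the combination and ERBB2 as lower. KRT7 rose from 3.82 ± 2.40 to 38.7 ± 9.22, GATA3 from 25.1 ± 9.18 to 104 ± 10.5 and FOXA1 from 26.6 ± 6.39 to 86.1 ± 16.3. EGFR rose from 1338 ± 24.6 to 4750 ± 1340, and ERBB2, the highest of them in DMSO, fell from 2951 ± 285 to 1223.5 ± 73.3. The share listed as higher was 21.1%, against 10.3% of all tested genes. The other 14 markers were not listed, so their levels are unknown.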

How the data were processed

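RNA was sequenced from 12 libraries used here, 3 per group. Nothing in the labels says that replicates were separate cultures, so their spread may be technical. Per the submitters' processing notes, HISAT2 2.0.5 and featureCounts 1.5.0-p3 were used on hg38 together with fastp. The tool of the authors' comparison and its strand setting are not given in the sources used here. Per the file headers, the deposited tables give a signal per library, a log2 fold change and p-values. From the values, the signal in the combination table is read counts divided by 1 factor per library: 100% of values gave whole reads within 0.001. The numbers of tested genes were inferred from the ranks of the authors' deposited p-values, which were whole within 0.02 for 89.7% (combination), 89.1% (ezetimibe) and 58.8% (fenofibrate). The fenofibrate number is the least certain.

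The combination and ezetimibe tables were each fitted against DMSO with limma 3.58.1 (R 4.3.3) on log2(value + 1). Adjustment was by Benjamini-Hochberg over all genes of a fit, at a threshold of 0.05. The fenofibrate table was not fitted against DMSO. Ezetimibe was also compared with fenofibrate by limma, over the genes listed in both tables, scaled through the shared DMSO libraries. Limma called all 3508 genes of the combination table, and edgeR 4.0.16 on the recovered reads also called 3508. DESeq2 1.42.0 called 2825. The authors had already called every one of these genes from the same libraries. A high count was thus close to fixed in advance, and the adjustment does not cover all tested genes. The limma fit was tested on simulated data. No p is given for the 48 genes, since the rule used the contrast. "Rose" and "fell" are the authors' listing, and limma, fitted only on listed genes, also called them. The 14 gene lists and the 48 genes were chosen with earlier results of these data known. Named were the 12 highest genes, those with a transcription factor family, list members and genes nearest the limits. All other names, the roles, 86 relatives, 10 motifs, distances to neighbours and the printed promoters were chosen after the genes were known, and the printed promoters after matches were seen. Of the relatives 17 were listed, 12 higher and 5 lower. Folds are ratios of reads summed over each group's libraries, corrected for the summed library factors, with a floor of 3 reads over the group. Ratios with 1 to 3 DMSO reads have 95% exact intervals (Clopper-Pearson) for counting error only. All 48 genes had coordinates equal to GENCODE release 29, and 19 shared exon bases with another gene. Promoters are RefSeq's, on GRCh38.p14.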

Additional observations from a re-analysis of the deposited data

How the results depend on the processing

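The number of genes depended on the limits. A DMSO limit of 0.5 gave 29 genes and a limit of 2 gave 96. A combination limit of 5 gave 104 genes and a limit of 20 gave 25. Medians in place of means gave 68 genes, 42 of them shared with the 48, and whole reads gave 44, 41 of them shared. Leaving out 1 library at a time gave 51 to 62 genes that held 41 to 46 of the 48. FUT3, INHBC and PIWIL4 depended on combination library 1, HECW2, LONRF3, MEI1 and TRPV6 on library 2, and EBF3 and SIGLEC9 on library 3. IL31RA, PILRA, TMEM154, LONRF3, MMP1, PHF24, PHLDB2, SIGLEC9, EBF3 and TAL1 were lost without 1 or more of the DMSO libraries.

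The median log2 change of the 48 genes was 4.10 with 1 added to each value, 4.91 with 0.5, 2.14 with 5, 5.81 with edgeR, 5.63 with edgeR's TMM factors, 5.22 with DESeq2 and 6.02 in the authors' deposited table. Leaving out a library gave 3.89 to 4.19. The scaling also moved the median of all genes of the table, which was 1.17 with edgeR on the authors' factors, 0.95 with TMM and 0.36 with DESeq2. Every median of the 48 genes was above it, which the rule made all but certain. Limma and edgeR called 2058 genes higher and 1450 lower, DESeq2 1375 and 1450, and limma on genes with a mean of at least 10 called 1739 and 1388. All of these fits ran only on genes the authors had already called. Leaving out a library gave 2029 to 2050 higher and 1442 to 1447 lower. On the transcribed strand alone GGGCGG was in 31.5% of windows (30.6% of all promoters) and TGATGNAA in 0 (1.87% of all). The cause of these shifts was not tested.

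Same-numbered combination and DMSO libraries had correlated deviations of 0.09, -0.33 and 0.16, and only combination library 3 correlated best with its own number. The labels link these samples only by number, and whether they were paired in another way cannot be told from so few libraries. A replicate block gave 3508 called genes with the combination, 472 with ezetimibe against 471 without the block, and 36 of the genes between ezetimibe and fenofibrate against 37. Count tests of the ezetimibe table with edgeR or DESeq2 were not run, since whole reads were not recovered there. Depth limits the DMSO side most: 0 reads in 3 libraries does not show that a gene is off.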
